A study of Macaca mulatta with 6 samples.

Results

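Predicted candidate miRNAs are small RNAs that the authors' pipeline called from the reads as likely products of a hairpin precursor, without a known miRNA behind the name. They carry names that begin with PC- in the deposited table, followed by the arm of the predicted hairpin (5p or 3p). A candidate was taken as detected where its normalized count was 10 or higher in 3 or more of the 6 libraries, and entries with the same sequence were counted once. By this rule 121 sequences (122 entries) were detected of 895 candidate sequences (897 entries), in a table of 2046 entries with 2015 sequences. Levels chose the members, so levels are given below as a description only.

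The plasma came from 3 adult male rhesus monkeys (Macaca mulatta). The groups were after ischemia (3 libraries, a_MCAO 1 to 3) and before ischemia (3 libraries, b_MCAO 1 to 3). Equal replicate numbers were taken to mark the same monkey. Ischemia was produced by a clot flushed through a micro-catheter into the M1 segment of the right middle cerebral artery (MCAO), blood was drawn again 3 h after onset according to the methods, and only monkeys whose artery was still occluded were kept. The baseline samples came from the same monkeys, and no sham-operated group is among the labels used here, so ischemia, anesthesia, catheter and elapsed time cannot be told apart.

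In animals, a miRNA is cut from a hairpin by Drosha and Dicer into a duplex of a 5p and a 3p strand, 1 of which is usually retained by an Argonaute protein. The seed, bases 2 to 8 from the 5′ end, pairs with target mRNAs, and miRNAs with the same seed form a family. In plasma, miRNAs come from blood cells, platelets and tissues, and travel in vesicles or bound to proteins. Fragments of longer RNAs have similar lengths, and a prediction from reads alone does not establish that a sequence is processed as a miRNA. No target or function is annotated for the candidates in the files.

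The sequences below are those with the highest levels and those whose groups were separated most. They are written as the DNA letters of the table, 5′ to 3′, with the seed in capitals. The first set holds the 12 candidates with the highest mean level.
PC-3p-1620_2290: tAATAAGAcatgaggcttgagt
PC-3p-3722_575: tCGACTCCcggtatgggaacca
PC-3p-4437_437: aAGGCTAAttgattttgac
PC-5p-4160_482: cATGCCACtgcacctgcctaat
PC-3p-5128_350: tCCCCGGCatctccaccaaa
PC-5p-4872_379: aCAAGAGAgcagaatgaggtttt
PC-3p-3290_710: cGTCAATTacgtttgcactga
PC-3p-4026_506: tTATACTTgtttgttgtagtga
PC-5p-3784_558: tCCTACAAatgtgacctgcttt
PC-3p-10627_131: tGTAACAActcacctgcc
PC-3p-6826_232: tCTCTGACaaaggataatcact
PC-5p-3734_572: gTCAAGTGgctgctgagagtct

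The second set shows the 6 highest and then the 6 lowest log2 fold changes among candidates whose groups did not overlap and that moved one way in every monkey.
PC-5p-51476_18: aTGGGGACagtttttgtagtac
PC-5p-8713_165: aTTCCGTCccaggccacc
PC-5p-32876_35: cCCGAAACcaagtgatcta
PC-5p-31177_38: aTTCCCCCtcccggcacca
PC-3p-32463_36: aCCGCGATgatttttgcaccca
PC-5p-17128_77: tTGAAAAGttaggggatga
PC-5p-4674_403: aCTGCTGCcctgatagtcggct
PC-5p-10049_140: tGCCAGGCagggggactctggg
PC-5p-19677_66: tCGCATCTgggagcctctgtct
PC-3p-15073_89: tATGGAAAgactttgtcacttt
PC-5p-15652_85: aAGTTGGTaagttctgcttgac
PC-3p-27415_45: tTTACAGCaaaagtctcagggc

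The candidates were mostly of miRNA length. Of the 121 sequences 63 (52.1%) had 22 nt, 18 had 21 nt and 12 had 23 nt, while 10 had 18 nt, 8 had 19 nt, 7 had 20 nt, 2 had 24 nt and 1 had 25 nt. In the whole list of 895 candidates 37.4% had 22 nt. Among the detected entries with a rhesus name 46.7% had 22 nt and 4.69% had 18 to 20 nt, against 20.7% of the detected candidates with 18 to 20 nt. Among those named after another species 29.7% had 22 nt and 26.1% had 18 to 20 nt, so short sequences were not particular to the candidates. The arm was 3p for 64 sequences and 5p for 56. The remaining sequence, PC-3p-4437_437, was listed a second time as PC-5p-4437_437 with identical values, so its arm is not settled by the table. The first base was T in 55 sequences, A in 39, C in 14 and G in 13.

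Levels were low. The mean over the 6 libraries was 25 normalized counts in the median candidate (6.43 to 537), against 46.1 in detected entries named after another species and 525 in detected entries with a rhesus name. By distinct sequence 13.5% of the candidates met the level rule, against 40.8% of the sequences named after another species and 77.8% of those with a rhesus name. All the detected candidates together held 0.0421%, 0.0449% and 0.0451% of the listed counts after ischemia, and 0.0552%, 0.0481% and 0.0654% before. Their share was lower after ischemia in each monkey (0.0441 ± 0.00169% after and 0.0562 ± 0.00871% before, SD, n = 3 each), and their summed level was 5262 ± 339 after and 5102 ± 582 before.

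Library totals were 6036831 to 9737589 reads after ischemia and 10745499 to 15548693 before. Since the authors scaled every library by 1 factor, 1 read was worth 1.28 to 1.86 normalized counts after ischemia and 0.565 to 0.779 before, and the value of 10 stood for 5.38 to 7.80 reads after ischemia and 12.8 to 17.7 before. A 0 allows up to 3 reads, or 3.85 to 5.58 normalized counts after ischemia and 1.70 to 2.34 before, and this floor covers counting error only. After ischemia 101, 108 and 92 of the 121 candidates were above 0, and before ischemia 107, 110 and 113. A candidate absent after ischemia was therefore measured at the lower depth.

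Candidates were not equally widespread. Above 0 in all 6 libraries were 65, and 39 reached 10 in all 6. Another 31 reached 10 in exactly 3 libraries, among them 3 that did so only after ischemia and 4 only before. Those 7 met the level rule through 1 group alone and had to differ between the groups. Just inside the level rule stood PC-3p-28121_44, PC-5p-27764_44 and PC-3p-35534_32, each with a third-highest value of 10.1. Just outside stood PC-3p-22914_56 at 9.75, PC-3p-20409_64 at 9.65 and PC-3p-25648_49 at 9.61.

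The most abundant candidate was PC-3p-1620_2290. It had 655, 836 and 368 normalized counts after ischemia and 525, 520 and 317 before. Each monkey had more of it after ischemia, but the groups overlapped (log2 fold change 0.41, SE 0.44, limma adjusted p = 0.637). It alone made up 11.6%, 16.5% and 7.27% of the candidates' counts after ischemia and 11.4%, 10.5% and 5.52% before.

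PC-3p-3722_575, the next in level, had 192, 106 and 139 normalized counts after ischemia and 321, 263 and 630 before. All 3 libraries after ischemia were below all 3 before (log2 fold change −1.40, SE 0.48), yet the difference missed the threshold over all entries tested (limma adjusted p = 0.137). PC-3p-4437_437 had 337, 302 and 356 after ischemia and 132, 199 and 169 before. Here the groups were separated in the other direction (log2 fold change 1.0, SE 0.38, limma adjusted p = 0.163). PC-3p-5128_350 was likewise above its baseline in every library, at 167, 197 and 156 after ischemia and 124, 34.3 and 82.6 before (log2 fold change 1.28, SE 0.56, limma adjusted p = 0.219).

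In the other 8 abundant candidates the groups overlapped. PC-5p-4160_482 was at 117, 251 and 272 after ischemia and 87.3, 53.1 and 135 before, more in each monkey after ischemia (log2 fold change 1.22, SE 0.54, limma adjusted p = 0.232). PC-5p-4872_379 was at 13.8, 146 and 80.0 after ischemia and 104, 216 and 157 before, less in each monkey (log2 fold change −1.45, SE 0.83, limma adjusted p = 0.346). Its lowest library was that of replicate 1 after ischemia. PC-3p-3290_710 (log2 fold change −0.89), PC-3p-10627_131 (−0.63), PC-3p-6826_232 (−0.29), PC-5p-3784_558 (−0.17) and PC-3p-4026_506 (0.11) had limma adjusted p-values between 0.455 and 0.925.

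PC-5p-3734_572 varied between the monkeys. It had 209, 0 and 187 normalized counts after ischemia and 47.1, 2.35 and 172 before. Both libraries of replicate 2 were low or at 0, and both libraries of replicate 3 were high (log2 fold change 0.17, SE 2.16, limma adjusted p = 0.981).

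**Figure D1:**
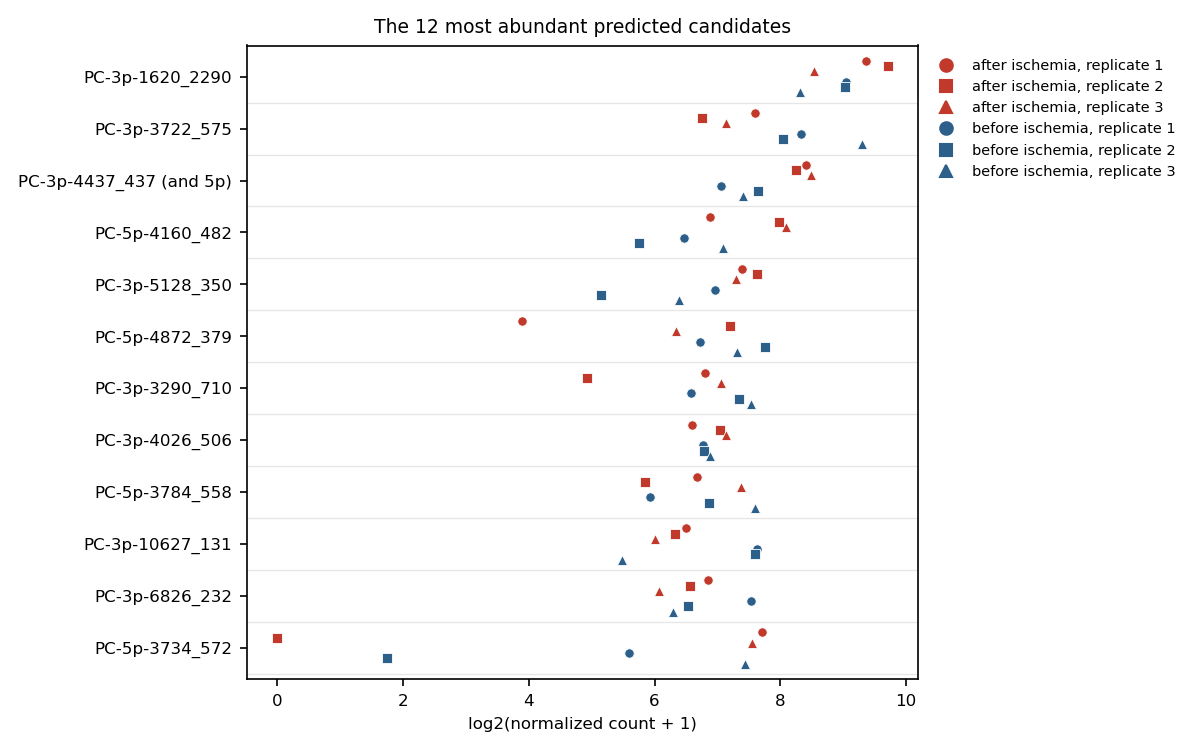
Levels of the 12 most abundant candidates in each library, as log2(normalized count + 1), with 1 symbol per replicate number, red for after ischemia and blue for before. PC-3p-3722_575 lies lower after ischemia and PC-3p-4437_437 and PC-3p-5128_350 lie higher without overlap, while the 2 libraries of replicate 2 are the lowest for PC-5p-3734_572.

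For the comparison between the groups, log2(normalized count + 1) was fitted with limma over all 807 entries that met the level rule. Candidates and known miRNAs were fitted together, without pairing the libraries of 1 monkey. Of the 807 entries, 5.45% passed at an adjusted p under 0.05, 1.98% being higher and 3.47% lower after ischemia. Among the 121 candidates, 0 were higher and 1 (PC-5p-4674_403) was lower. Without adjustment, 10 candidates were higher and 7 lower at a p under 0.05, against 9.79% higher and 12.5% lower of all entries (22.3% together). The groups did not overlap in 18 candidates that were higher and 8 that were lower, 21.5% together, against 11.5% higher and 15.4% lower of all entries (26.9% together). Leaving out the 7 candidates that reached 10 in 1 group alone, 15 of 114 were higher and 4 lower without overlap, and 0 were past the adjusted threshold. The shares of all entries above were not restricted in this way, so they do not match these counts. The median log2 fold change of the candidates was −0.17 (−6.37 to 4.03), against −0.06 for all entries tested.

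PC-5p-4674_403 was the candidate past the adjusted threshold. It was listed at 0 in all 3 libraries after ischemia and had 12.5, 231 and 178 normalized counts before. With 3 reads per library taken as the floor, its mean was at least 31.1-fold lower after ischemia. This bound compares group means and does not hold for each monkey: replicate 1 had 12.5 before against a floor of 4.14 after. The groups did not overlap, and the library of replicate 1 before ischemia was far below the other 2 (fitted log2 fold change −6.37, SE 1.24, limma adjusted p = 0.0232). It reached 10 only before ischemia, so its place in the list rested on that group and its separation was fixed by the level rule. The unadjusted unequal-variance test gave a p of 0.166. Without replicate 1 or replicate 3 after ischemia the adjusted p was 0.0641 or 0.0508, no longer under the threshold, and without any 1 of the baseline libraries it did not pass the filter and was not tested.

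PC-5p-10049_140 had 0, 35.9 and 0 normalized counts after ischemia and 97.4, 154 and 76.9 before. All libraries before ischemia lay above the highest one after ischemia, which was that of replicate 2 (log2 fold change −4.99, SE 1.37, limma adjusted p = 0.0833). With the replicate number as a block, the numbers being taken to pair the monkeys, the limma adjusted p was 0.0471. In that setting 2 candidates in place of 1 were lower. PC-3p-3763_564 is named here because it passed in one setting (chosen after its values were seen): it had 0, 21.8 and 0 after ischemia and 18.7, 84.7 and 224 before. Its groups overlapped through replicate 2 (log2 fold change −4.68, SE 1.44, limma adjusted p = 0.112).

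The 4 remaining candidates of the low end were rare. PC-5p-19677_66 was at 0 in every library after ischemia and at 16.4, 11.4 and 19.2 before, at least 3.47-fold lower by the group means (limma adjusted p = 0.0934). PC-3p-15073_89 had 6.89, 0 and 0 after ischemia and 17.9, 21.5 and 40.1 before (log2 fold change −3.71, SE 1.18, limma adjusted p = 0.115). PC-5p-15652_85 had 0, 4.49 and 0 after ischemia and 12.5, 17.1 and 17.0 before (log2 fold change −3.21, SE 1.19, limma adjusted p = 0.159). None of these met the threshold, and their values after ischemia were near the floor. They reached 10 only before ischemia, so their separation was fixed by the level rule. PC-3p-27415_45 had 9.65, 0 and 14.9 after ischemia and 19.5, 16.8 and 32.8 before (log2 fold change −2.06, SE 1.17, limma adjusted p = 0.345).

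At the high end, PC-5p-51476_18 had 17.9, 15.4 and 13 normalized counts after ischemia and was at 0 in all 3 libraries before. By the group means it was at least 7.66-fold higher after ischemia, at a level close to that of the smallest values kept (limma adjusted p = 0.0934). It reached 10 only after ischemia, so its separation was fixed by the level rule. PC-5p-8713_165 had 97.9, 76.9 and 141 after ischemia and 17.9, 0 and 20.4 before. Its lowest library after ischemia was far above its highest before (log2 fold change 3.80, SE 1.16, limma adjusted p = 0.109). PC-5p-17128_77 had 123, 78.2 and 76.2 after ischemia and 12.5, 16.1 and 52.0 before, again without overlap (log2 fold change 1.98, SE 0.67, limma adjusted p = 0.137).

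PC-5p-32876_35 had 40.0, 23.1 and 26 after ischemia and 0, 0 and 22.6 before (log2 fold change 3.38, SE 1.35, limma adjusted p = 0.179). The separation was narrow, because replicate 3 before ischemia reached 22.6. PC-5p-31177_38 had 64.8, 12.8 and 14.9 after ischemia and 8.57, 0 and 2.83 before (log2 fold change 2.87, SE 1.18, limma adjusted p = 0.189). PC-3p-32463_36 had 53.8, 24.4 and 11.2 after ischemia and 0, 6.72 and 5.65 before (log2 fold change 2.79, SE 1.14, limma adjusted p = 0.189). In both of these the library of replicate 1 after ischemia stood above the other 2. Both reached 10 only after ischemia, so their separation was fixed by the level rule.

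**Figure D2:**
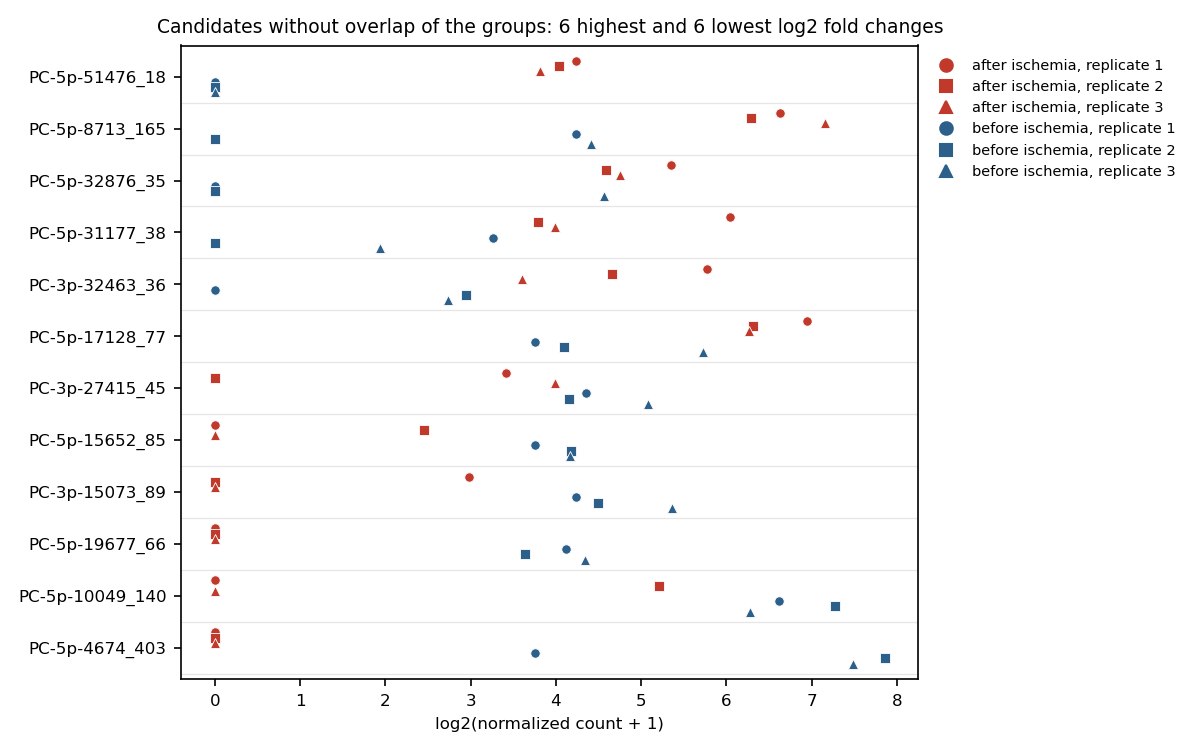
Normalized counts, as log2(normalized count + 1), of the 6 highest and the 6 lowest log2 fold changes among candidates whose groups do not overlap, with 1 symbol per replicate number, red for after ischemia and blue for before. PC-5p-51476_18 is at 0 in all 3 libraries before ischemia, and PC-5p-4674_403 and PC-5p-19677_66 are at 0 in all 3 after.

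The study's tables of changed miRNAs name 8 of the detected sequences, chosen on these same samples, so their direction is not independent evidence. Of these, PC-3p-4437_437, PC-5p-8713_165, PC-5p-17128_77, PC-5p-10049_140 and PC-5p-15652_85 are described above. PC-3p-11325_121 had 29.0, 46.2 and 42.8 normalized counts after ischemia and 21, 16.1 and 17.0 before (limma adjusted p = 0.344). PC-3p-21542_60 had 34.5, 26.9 and 33.5 after ischemia and 14, 20.8 and 3.39 before (limma adjusted p = 0.314). For PC-3p-7925_187 the values were 35.8, 30.8 and 24.2 after ischemia and 55.3, 48.4 and 73.5 before (limma adjusted p = 0.346). The groups did not overlap in these 3, and none passed the adjusted threshold.

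The direction of the change was then set beside the length. The limit at 20 nt was set after the values had been seen, so what follows is a description without a test. Of the 25 candidates of 18 to 20 nt, 11 were higher after ischemia without overlap and 0 were lower, and their median log2 fold change was 1.0. Without PC-5p-31177_38, which reached 10 only after ischemia, 10 of 24 were higher and 0 lower without overlap. The 7 candidates of 20 nt did not move with the shorter ones, with a median of −0.78 and 1 higher without overlap, whereas 10 of the 18 of 18 or 19 nt were higher. Of the 96 longer candidates 7 were higher and 8 lower without overlap, with a median of −0.28. Of the 79 annotated sequences of 18 to 20 nt, 12 were higher and 11 lower without overlap, with a median of −0.04. Of the 41 annotated sequences of 18 or 19 nt, 9 were higher and 6 lower, also with a median of −0.04. Of the 670 annotated sequences of any length, 72 were higher and 116 lower. Of all 791 distinct sequences tested, 11.38% were higher and 15.68% lower without overlap. The difference between the classes was not tested. None of the 25 was past the adjusted threshold in limma, and 7 were higher and 0 lower at a p under 0.05 without adjustment.

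The 11 short candidates that were higher without overlap are shown to let their 5′ ends and lengths be compared, and the 5 of them not printed above are given here with the seed in capitals.
PC-3p-10500_133: tGAGCTGTggataggggt
PC-5p-11150_123: gGCGATCAcaggcgatga
PC-5p-8121_181: gCAGGAAAagaaatcaac
PC-5p-11706_117: cCTGCGAAggtgcactgaa
PC-5p-11230_122: tCCTGGATggctgtacca
No seed was shared among the 11, and none of them shared its seed with an annotated entry of the table.

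PC-3p-10500_133 had 136, 70.5 and 91.1 normalized counts after ischemia and 17.1, 18.8 and 66.2 before (log2 fold change 1.74, SE 0.67, limma adjusted p = 0.163). PC-5p-11150_123 had 112, 42.3 and 78.1 after ischemia and 35.1, 9.41 and 40.7 before (log2 fold change 1.54, SE 0.73, limma adjusted p = 0.254). In both, replicate 1 was the highest library after ischemia and replicate 3 the highest before. PC-5p-11706_117 had 60.7, 32.1 and 115 after ischemia and 28.8, 12.1 and 24.3 before (log2 fold change 1.53, SE 0.69, limma adjusted p = 0.236). PC-5p-8121_181 had 102, 42.3 and 70.7 after ischemia and 26.5, 18.2 and 37.9 before (log2 fold change 1.32, SE 0.60, limma adjusted p = 0.238). PC-5p-11230_122 had 35.8, 24.4 and 52.1 after ischemia and 18.7, 10.8 and 11.9 before (log2 fold change 1.35, SE 0.67, limma adjusted p = 0.276). Replicate 2 was the lowest library after ischemia in all 5, and each of the 3 monkeys had more after ischemia than before.

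**Figure D3:**
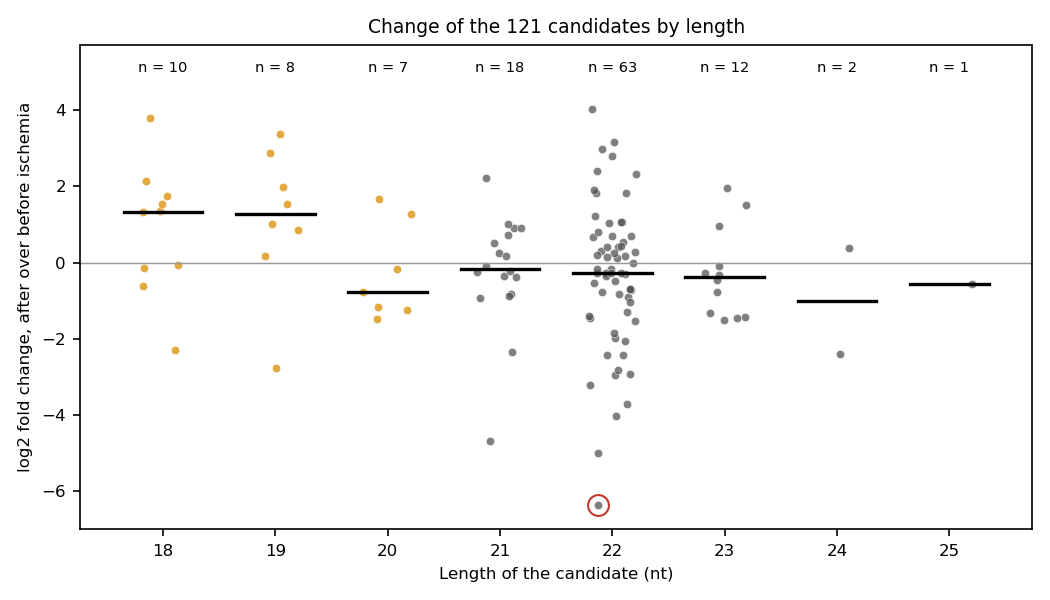
The log2 fold change (after over before ischemia) of each of the 121 candidates by length in nt, with 1 point per candidate, a bar for the median of each length, orange for 18 to 20 nt and a red ring for the candidate past the adjusted threshold. The medians are 1.34 at 18 nt and 1.27 at 19 nt, and −0.28 at 22 nt.

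As a share of all candidate counts, the candidates of 18 to 20 nt took 29.9%, 23.5% and 30.3% after ischemia and 20.3%, 15.8% and 21.9% before (27.9 ± 3.84% after and 19.3 ± 3.13% before, SD, n = 3 each). The share was higher after ischemia in each of the 3 monkeys, and the lowest library after ischemia was above the highest before. The summed level of the same candidates was 1693, 1189 and 1534 normalized counts after ischemia and 938, 782 and 1258 before, so that the groups overlapped in the sums, while the longer candidates summed to 3790 ± 227 after ischemia and 4109 ± 406 before (SD, n = 3 each), again with overlap. Without PC-3p-4437_437, the most abundant of them, it was 23 ± 3.84% after and 16.6 ± 3.78% before, and the groups then overlapped. Among annotated sequences, those of 18 to 20 nt held 1.43%, 1.44% and 1.77% after ischemia and 2.00%, 1.69% and 1.89% before, which was less after ischemia in each monkey.

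**Figure D4:**
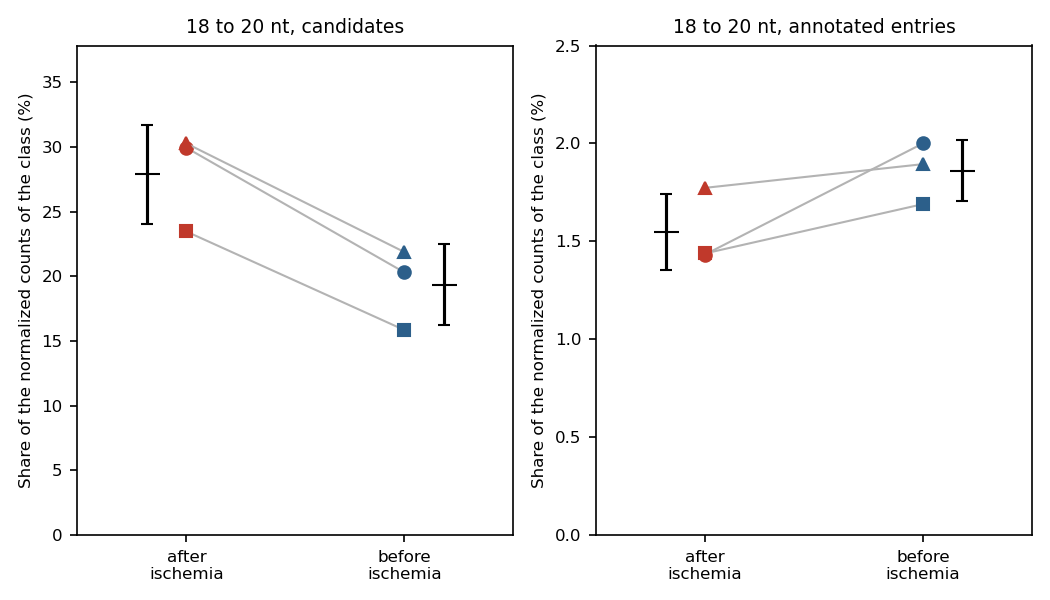
Share of normalized counts in sequences of 18 to 20 nt, in percent, for the candidates (left) and the annotated entries (right), after ischemia in red and before in blue, with lines joining the libraries of 1 replicate number and bars for the mean and SD. Among the candidates the share is 27.9% after ischemia and 19.3% before, and among annotated entries 1.55% and 1.86%.

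The counts by length depended on the scaling. When the libraries were scaled to equal totals, which shifts all sequences almost alike, the median log2 fold change of all tested sequences moved to −0.44 in place of −0.06. Of the short candidates 4 were then higher and 1 lower without overlap, with a median of 0.62, and of the longer ones 3 were higher and 13 lower, with a median of −0.64. In this scaling 5.69% of all sequences tested were higher and 22.88% lower without overlap. Among all sequences of 21 to 26 nt, 4.95% were higher and 24.02% lower, against 3.13% and 13.54% of the longer candidates. Among all of 18 to 20 nt, 10.58% were higher and 15.38% lower, against 16% and 4% of the short candidates. The 18 nt candidates are at the lower end of the length window that the authors kept.

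The miRNAs of blood cells were summed in each library. An exact permutation test of 3 against 3 libraries cannot give a p under 0.1, so no sum could pass 0.05. The red blood cell miRNAs (miR-451, miR-144 and miR-486-5p, 9 entries, 7 of them above 0 in every library) took 33.0%, 13.1% and 27.1% of the listed counts after ischemia and 7.58%, 6.50% and 18.7% before (exact two-sided permutation p = 0.2, Benjamini-Hochberg adjusted 0.317 over 19 measures). They were higher after ischemia in each monkey, with the largest difference in replicate 1, and the groups overlapped. The leukocyte miRNAs (miR-142, miR-150 and miR-155, 8 entries, 6 above 0 in every library) took 3.21% to 3.55% after ischemia and 1.94% to 2.51% before (exact permutation p = 0.1, the smallest that 3 against 3 allow, adjusted 0.317). This sum was higher after ischemia in each monkey, and its groups did not overlap. The miRNAs listed for platelets (miR-126 and miR-223, 9 entries, 6 above 0 in every library) took 3.65% to 5.72% after ischemia and 4.72% to 7.86% before, with overlap (exact permutation p = 0.2, adjusted 0.317). The most abundant entry of that list was mml-miR-223_R+2, and the cell source of the sum was not tested.

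The log2 of miR-451 over miR-23a-3p, used as a measure of hemolysis, was 2.19, −0.17 and 1.86 after ischemia and 0.33, 0.11 and 1.90 before (exact permutation p = 0.8, adjusted 0.8). Known entries often taken to be fragments of other ncRNA (such as miR-4454, miR-1246 and miR-1260) gave 54 sequences, of which 26 were tested, with 1 higher and 0 lower and a median log2 fold change of 0.20. Whether any of these sources has a part in the candidates' differences was not tested.

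By arm, the 5p names had a median log2 fold change of 0.22 with 12 higher and 4 lower without overlap of 56. The 3p names had −0.28, with 5 higher and 4 lower of 64. Of all entries tested 11.5% were higher and 15.4% lower without overlap. Arm and length go together in these counts, because 8 of the 11 short candidates above have 5p names. The separate effect of each was not tested.

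Libraries of the same monkey were also compared. Over the 121 candidates, the deviations from the group means correlated at 0.16, 0.40 and 0.30 for the pairs of libraries from 1 monkey, while the other pairs ran from −0.29 up to 0.03. These are correlations across candidates, which share the library and its depth. PC-5p-34793_33 and PC-3p-33133_35 were at 0 in both libraries of replicate 3 and above 0 in the other 4. PC-3p-28590_43 and PC-3p-36076_31 were at 0 in both libraries of replicate 1 and above 0 in the other 4.

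PC-5p-34793_33 had 31.7, 29.5 and 0 normalized counts after ischemia and 10.9, 17.5 and 0 before. PC-3p-36076_31 had 0, 32.1 and 13 after ischemia and 0, 8.07 and 10.7 before. Of the candidates, 3 were at 0 in both libraries of replicate 1, 0 in both of replicate 2 and 6 in both of replicate 3. Depth differs between the libraries, and at these levels a 0 is close to the floor of 3 reads.

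Most candidates had no relative by seed or by a run on the same strand among the known miRNAs of the table. Of the 121, 95 shared neither the seed nor a run of 16 or more bases with an annotated entry, while 19 shared a seed, 16 shared such a run and 9 did both. The comparison covered only the annotated entries of the table. Separately, 6 of the 121 had a run of 16 or more bases complementary to an annotated entry. Among these was PC-3p-27415_45, 1 of the 95, with 16 bases complementary to hsa-miR-7976_R+1_1ss2GC. Of the 26 with a shared seed or run, 0 were past the adjusted threshold, against 5.45% of all entries tested. Without overlap 1 was higher and 2 were lower, against 11.5% and 15.4% of all entries tested. The 2 lower ones, PC-3p-15073_89 and PC-5p-15652_85, reached 10 only before ischemia, so their separation was fixed by the level rule. The median log2 fold change of the 26 was −0.55, against −0.09 for the other 95.

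The 16 shared runs had 17 to 23 bases, and the candidate had the higher mean in 9 of the 16 pairs and the known entry in 7. The 8 of these candidates with the highest mean level, and PC-3p-28531_43, which has the same 5′ end as PC-3p-7745_194 and was chosen after its values were seen, are printed to show what the name PC- covers, with the run shared with the annotated entry in capitals.
PC-5p-7990_185: TGGCTCAGTTCAGCAGGAtt
PC-3p-7745_194: AAAAGCTGGGTTGAGAGGGCatt
PC-3p-28531_43: AAAAGCTGGGTTGAGAGGGtgt
PC-5p-9386_152: TGACCCAACAAGGAAGGACAAGAgt
PC-5p-9212_154: tgcagAAGTAATTGTGGGTTTT
PC-5p-15188_88: TAGTGAGTTAGAAATGCAGAGCct
PC-3p-15302_87: TCTGGGCAACAAATTGAGACt
PC-3p-21584_60: tTTCTTCTTAGACATGGCAGCGa
PC-3p-10717_129: TGTGGGACCTCTGGCCTTGgct

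PC-5p-7990_185 shared its first 18 bases with mml-miR-24-3p_R+1, an abundant miRNA, and differed at its 3′ end. Its mean was 25 normalized counts, against 39337 for mml-miR-24-3p_R+1. PC-3p-7745_194 shared 20 bases with mml-miR-320b_R-2 (mean 40.8 against 1309), and PC-3p-28531_43 shared 19 bases with mml-miR-320c_R-3_1ss15CG (12 against 554). All 3 candidates carry extra bases after the shared run and were far below the known miRNA.

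PC-3p-7745_194 had 12.4, 11.5 and 37.2 normalized counts after ischemia and 21.8, 100 and 61.6 before, lower in each monkey, with groups that overlapped (log2 fold change −1.5, limma adjusted p = 0.311). mml-miR-320b_R-2 itself had 1280, 730 and 1019 after ischemia and 884, 1640 and 2302 before (log2 fold change −0.60, limma adjusted p = 0.449). PC-5p-9386_152 shared 23 bases with hsa-miR-5699-5p_R+1_1ss3CA (mean 35.8 against 421), and PC-5p-15188_88 shared 22 with hsa-miR-3174_R-1_1ss13GA (29.4 against 158). The known entry had the higher mean in both pairs.

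In other pairs the levels were close or the candidate was the more abundant. PC-3p-15302_87 shared 20 bases with hsa-miR-1285-3p_R-1_1ss14GT (mean 23.5 against 26.9), and PC-3p-21584_60 shared 21 with hsa-miR-4659b-3p_L-1R+1_1ss22TG (20.2 against 20.6). PC-3p-10717_129 shared 19 with hsa-mir-3922-p3_1ss9TC and was the more abundant (51.5 against 0.672), as was PC-5p-9212_154, which shared 17 with hsa-mir-548d-2-p5_1ss14TG (29.5 against 12.8). PC-3p-21584_60 had 44.1, 11.5 and 42.8 after ischemia and 7.01, 12.8 and 2.83 before, with replicate 2 the exception to a higher level after ischemia (log2 fold change 1.96, SE 0.90, limma adjusted p = 0.243).

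Some candidates carried the seed of a known miRNA without a shared run. PC-3p-7137_218 had the seed of mml-miR-423-3p and a mean of 82.0 normalized counts, at 27.6, 94.9 and 115 after ischemia and 118, 66.6 and 70.1 before (log2 fold change −0.28, limma adjusted p = 0.863). PC-3p-6826_232 had the seed of mml-miR-301a-5p_L+2, with 114, 93.6 and 66.0 after ischemia and 184, 91.4 and 77.8 before (log2 fold change −0.29, limma adjusted p = 0.802). PC-5p-9306_153 had the seed of hsa-miR-5698, with 13.8, 23.1 and 14.9 after ischemia and 3.90, 82.0 and 156 before (limma adjusted p = 0.622). Groups overlapped in all of these, and the last varied most among the baseline libraries.

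Complementary runs of 10 or more bases joined 7 pairs of detected candidates. Among them were PC-3p-9095_157 with PC-3p-10500_133 and PC-3p-32463_36 with PC-3p-28121_44, in which both names give the 3p arm. Runs of 11 or more bases joined 4 pairs, each of a 5p and a 3p name. These longer runs are given in capitals, each 5′ to 3′, to show which candidates could be the 2 strands of a duplex.
PC-5p-24778_51: aggtgacTATCCTTTGTCAGAG
PC-3p-11315_121: tCTCTGACAAAGGATAatcacc
PC-3p-6826_232: tCTCTGACAAAGGATAatcact
PC-5p-4160_482: catGCCACTGCACCtgcctaat
PC-3p-7137_218: agctcGGTGCAGTGGCtcacgt
PC-5p-5684_300: gtttgtactTGGTATGGCTTca
PC-3p-17315_76: AAGCCATACCAgtgcgaactgt
PC-5p-24778_51 was complementary over 15 bases to both PC-3p-11315_121 and PC-3p-6826_232, which share 21 of their 22 bases. PC-5p-5684_300 was complementary over 11 bases to PC-3p-17315_76, and PC-5p-4160_482 over 11 bases to PC-3p-7137_218. A complementary run is a description of the letters, and no hairpin was folded.

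The strands of the first group differed in level. PC-3p-6826_232 had a mean of 105 normalized counts, PC-3p-11315_121 had 20.04 and PC-5p-24778_51 had 8.92. PC-3p-11315_121 had 24.8, 37.2 and 17.7 after ischemia and 23.4, 6.72 and 10.5 before, higher in each monkey with overlap of the groups (log2 fold change 1.03, SE 0.77, limma adjusted p = 0.457). The values of PC-5p-24778_51 were 11, 13.5 and 0 after ischemia and 10.9, 10.8 and 7.35 before. The nearly identical PC-3p-6826_232 and PC-3p-11315_121 had log2 fold changes of opposite sign, neither of them past the threshold.

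Other complementary partners lay below the level rule. PC-5p-16834_79, at 40.7, 14.1 and 24.2 normalized counts after ischemia and 21, 38.0 and 36.8 before, was complementary over 17 bases to PC-3p-26421_47, which was at 0 in all 3 libraries after ischemia and at 11.7, 12.1 and 9.61 before. PC-5p-3734_572 was complementary over all of its 22 bases to PC-5p-70778_10, which was above 0 in replicate 1 after ischemia and replicate 2 before ischemia only, at 24.8 and 3.36. Both names of the last pair give the 5p arm.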

How the data were processed

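Small RNA of plasma was sequenced by the authors, trimmed, limited to a length window, filtered against other ncRNA of Rfam and assigned to precursors with ACGT101-miR; versions and genome build are not given in the sources used here. As deposited, the values are a signal: the authors multiplied the reads of each library by 1 factor (normalized counts). The factor was recovered from the value steps, and 84.0% to 86.9% of the values above 0 were then whole reads within 0.01. Too many were fractions for a count test, so limma was used, as planned for that case. Depth was 6036831 to 15548693 reads. The sheet has 0 columns left without a sample, and 5 lines emptied for this work are not reported here.

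Values were tested as log2(normalized count + 1) with limma 3.58.1 (R 4.3.3) with a variance trend, after ischemia minus before, two-sided, for the 807 entries at 10 or more in 3 libraries. Adjustment over all of them followed Benjamini and Hochberg. Fold changes on this scale understate those of low entries that are above 0 in every library. For an entry at 0, the added 1 lies below the floor of 3 reads, and the fitted change can exceed the bound that the floor gives. Exact permutation tests, counts and sequence comparisons were done in Python (3.11.15), using pandas 2.3.3, SciPy 1.17.1 and NumPy 2.4.6, with figures by Matplotlib 3.10.9. The fit was tested on simulated data. The replicate numbers were taken to mark the monkeys: deviations from the group means correlated at 0.18, 0.36 and 0.29 for pairs with 1 number, while other pairs ran from −0.40 up to 0.14.

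Candidates were named by a rule: those past the threshold, the 12 with the highest mean, the 6 highest and 6 lowest log2 fold changes without overlap and with 1 direction in every pair, those in the study's tables, those with both arms, up to 8 with a known seed and up to 8 with 16 or more shared bases, and 3 on either side of the level rule. The short candidates, zeros by monkey and complementary partners were named after their values had been seen. The members, lists and rules were chosen with earlier results of these data known. Alternatives were other scalings, pseudocounts of 0.5 and 5, other filters, no variance trend, an unequal-variance test, the replicate block, 1 entry per sequence and left-out libraries. Comparison with hairpins of a reference was not made.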

Additional observations from a re-analysis of the deposited data

How the results depend on the processing

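The candidates past the threshold were few under every setting, and their number depended on the setting. Against 0 higher and 1 lower, there were 2 lower with library totals, with no filter on low values and with the replicate block, 1 higher and 2 lower with a pseudocount of 5 and with limma without a variance trend, 6 higher and 4 lower with the unadjusted unequal-variance test, and 0 lower when 10 was required in all 6 libraries. Of all entries, 46 were lower with library totals (28 as reported), 10 were higher without the variance trend (16 as reported), and 30 were higher and 57 lower with the unadjusted test. The median log2 fold change of the candidates was −0.48 with library totals (−0.17 as reported). The cause was not tested. PC-5p-4674_403 had a p of 0.166 in the unadjusted unequal-variance test, PC-5p-10049_140 passed with no filter (adjusted p = 0.0375) and with a pseudocount of 5 (0.0431), and PC-5p-8713_165 passed with a pseudocount of 5 (0.0431). PC-5p-19677_66 passed with library totals (limma adjusted p = 0.0489). Without the variance trend PC-5p-19677_66 and PC-5p-51476_18 both passed (limma adjusted p = 0.0045), and each reached 10 in 1 group alone.

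With 1 library left out, or both libraries of 1 number (added after seeing the data), 0 candidates were higher and 0 to 3 lower, 2 to 24 of all entries were higher and 1 to 28 lower, and the median of the candidates was −0.12 to 0.18. The 3 lower candidates came without replicate 2 after ischemia (PC-5p-4674_403, PC-5p-10049_140 and PC-3p-3763_564), and with every other library or number left out the count was 0. Both libraries of replicate 3 left out gave the 2 and 1 entries. The sign of the median changed without replicate 2 after ischemia (0.01) without replicate 2 (0.09) or replicate 3 (0.14) before ischemia, and without both libraries of replicate 2 (0.18) or of replicate 3 (0.02).

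Among the named candidates the sign reversed in 4, none of them past the threshold. PC-3p-4026_506 was at −0.28 with library totals, and PC-5p-3734_572 at −0.18 with library totals and −0.085 with a pseudocount of 0.5. With libraries left out, PC-3p-4026_506 ranged between −0.000378 and 0.27, PC-3p-6826_232 between −0.54 and 0.079, PC-5p-3734_572 between −1.42 and 2.71, and PC-5p-3784_558 between −0.62 and 0.26. The replicate block changed no other call. Leaving out a library removed any candidate that reached 10 in that group alone, so its call could not be checked in that way. At the levels of the rarest candidates, 10 normalized counts are 5.38 to 17.7 reads, and a 0 does not show absence.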
